A study of Mus musculus with 19 samples.

Results

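Transferred control CD8 T cells were compared with the 72 h effector cells from which such cells are made. The members were chosen by their labels alone, as 6 of the 19 arrays of the series: 4 arrays of control cells activated for 72 h (arrays 1, 2, 3 and 4) and 2 arrays of control cells recovered after transfer, on day 18 (array 30) and on day 120 (array 32). All 6 came from purified CD8 T lymphocytes of TCRP1A transgenic Rag-1-/- mice on the B10.D2 background, so the T cells of the donor should carry 1 transgenic receptor, and donors lacking Rag-1 make no B cells and no other T cells. The 72 h cells had been activated by the antigen of that receptor. The transferred cells had been activated in the same way, injected into congenic hosts and taken back from host spleen and lymph nodes. The series text puts recovery later than day 20, whereas the label of array 30 gives day 18. Naive cells of the same genotype (4 arrays, 33 to 36) and cells transduced with Stat5ca, an active form of Stat5 (2 arrays at 72 h, 4 arrays on day 20 after transfer), entered the same fit and are used below where they bear on the control cells. Neither the number of hosts nor the genotype of the hosts' own lymphocytes is given in the labels. Nor do they name separate mice or cultures behind the arrays of 1 group, and p-values therefore measure a spread between arrays that may be technical.

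A CD8 T cell that meets its antigen divides several times a day, builds protein, lipid and nucleotides quickly, burns glucose by glycolysis, and loads granules with perforin and granzymes. Once the antigen is gone most of these effector cells die. The survivors return to rest as memory cells, are kept alive by interleukin-7 and interleukin-15, recirculate through spleen and lymph nodes, and can make interferon-γ within hours of a second encounter. The comparison addresses what control cells had kept and what they had lost of the effector state after weeks in congenic hosts.

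All levels are log2 signals as deposited, where a difference of 1 is a 2-fold change. Values of the 72 h group are given in the order of arrays 1 to 4, and those of the transferred group with day 18 first and day 120 second. Errors of changes are standard errors from limma, and a gene was called, written as rose or fell, at a Benjamini-Hochberg adjusted p under 0.05. As a guide to background, 7.32 was used, which is the 95th percentile over 1194 olfactory and vomeronasal receptor genes. Where the mean of a control group lies under it, the change counted from 7.32 is given as well if it differs from the plain change, and so are differences from Stat5ca cells.

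Several features of the arrays bear on the results. The 72 h arrays fell into pairs: the SD of gene-wise differences was 0.136 between arrays 1 and 4 and 0.194 between arrays 2 and 3, against 0.297 to 0.328 across the pairs. The same pairs differed in sex-linked RNA, with Xist at 6.18 and 6.35 in arrays 1 and 4 and at 12.92 and 12.84 in arrays 2 and 3. The mean of the Y-linked genes Eif2s3y, Kdm5d and Uty was 9.96 and 10.15 in arrays 1 and 4 and 5.42 and 5.43 in arrays 2 and 3. The day 18 array held both Xist (12.22) and Y-linked RNA (8.96), and the day 120 array held Y-linked RNA (9.57) with Xist at 6.45. Between the pairs 200 genes differed at least 2-fold, and for 176 called genes that difference was larger than the change after transfer. The RNA integrity number was 8 in both transferred arrays and 9, 10, 9 and 9 at 72 h. Of the marker lists, that of splenic red-pulp macrophages had the largest median change (5.56). The mean of its 13 markers was 8.02, 7.33, 7.36 and 7.95 at 72 h and 12.67 and 12.75 after transfer. Naive arrays 34 and 36 (12.05 and 11.95) were high for these markers too, and naive arrays 33 and 35 were not (7.30 and 7.93). Neutrophil markers followed the same arrays, with a median change of 4.57. Which cells gave this RNA was not tested. As in any bulk sample, fewer cells of a type and less RNA per cell cannot be told apart.

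Of 19938 genes, 7476 (37.5%) were called, 2610 higher (13.1%) and 4866 lower (24.4%) after transfer. At 2-fold or more there were 1082 rises (5.43%) and 1102 falls (5.53%), which is 11% of all genes. The median change over all genes was −0.037. The 72 h and transferred arrays did not overlap for 52.1% of genes, 20.2% of them higher and 31.9% lower after transfer. Counts of list members below are to be read against these shares. The share of all genes lying outside the naive range was not computed, so counts of members below or above that range have no such guide.

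**Figure D1:**
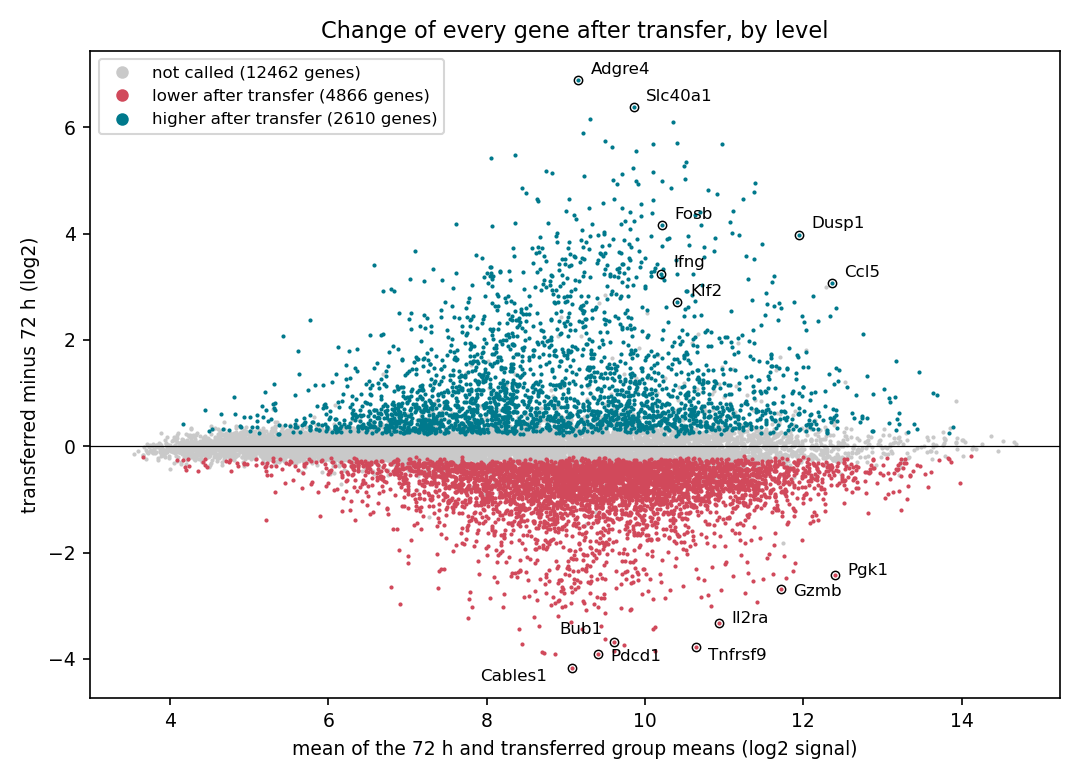
Each point is 1 of 19938 genes, with the mean of the 72 h and transferred group means (log2 signal) across and the transferred minus 72 h difference (log2) up; colours give the calls at an adjusted p under 0.05 and circles mark genes named in the text. The largest rises (Adgre4, Slc40a1) exceed 6, the largest falls reach −4.18 (Cables1), and calls lower after transfer (4866) outnumber calls higher (2610).

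Genes of DNA replication and mitosis fell together after transfer. All 41 measured genes of origin licensing and the replication fork fell (24.4% of all genes fell), with a median change of −1.75, and 40 of 42 genes of mitosis and chromosome segregation fell, with a median of −2.52. The mean of the replication genes was 10.55 to 10.86 over the 72 h arrays and 8.93 and 9.15 after transfer, within the naive range of 8.82 to 9.19. Without the day 18 array, 40 replication and 36 mitosis genes were called lower.

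Cep55, which takes part in cutting the bridge between daughter cells, went from 10.55, 10.73, 10.54 and 10.86 to 6.73 and 6.84, below background. It fell by 3.89 ± 0.21 (adjusted p = 1.25e-08), or by −3.35 counted from background. Bub1, a kinase of the spindle checkpoint, went from 11.50, 11.43, 11.24 and 11.62 to 7.46 and 8.07 and fell by 3.68 ± 0.56 (adjusted p = 8.77e-05). Both transferred arrays lay at least 3 log2 units under every 72 h array for these genes.

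Kif2c, a kinesin that takes apart microtubules at kinetochores, went from 10.96, 10.91, 10.74 and 11.10 to 7.34 and 7.63 (−3.44 ± 0.25). Ncapg, a condensin subunit, went from 11.19, 11.02, 10.97 and 11.38 to 7.49 and 8.03 (−3.38 ± 0.37), and Cenpe, a kinetochore motor, from 10.81, 10.64, 10.51 and 10.89 to 7.19 and 7.63 (−3.30 ± 0.36). Mastl, the kinase that holds mitotic phosphatase off, fell by 3.73 ± 0.33 to 6.47 and 6.70, under background (−2.99 counted from it). Among the replication genes Pole, the catalytic subunit of polymerase epsilon, went from 11.04, 11.02, 10.84 and 11.06 to 8.31 and 8.48 (−2.59 ± 0.20). Prim1, the primase subunit, fell by 2.55 ± 0.14 and the origin factor Mcm10 by 2.25 ± 0.19. For each of these genes both transferred arrays lay below all 72 h arrays.

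2 members did not follow. Pttg1, encoding securin, rose by 0.34 ± 0.10 (adjusted p = 0.0144), a call lost without day 120 (0.18, adjusted p = 0.319). Mki67, the proliferation marker Ki-67, was at 12.70, 12.63, 12.43 and 12.84 in effector cells and at 10.26 and 11.39 after transfer. The groups did not overlap, yet the change of −1.82 ± 0.80 was not called (adjusted p = 0.0921). The fit pools the spread of all groups, and naive arrays ran from 7.07 to 10.996. In a fit on the 6 compared arrays alone its adjusted p was 0.00127. In the mitosis list as a whole, naive arrays 34 and 36 (8.93 and 8.85) lay above naive arrays 33 and 35 (7.37 and 7.67), as their macrophage markers did. The transferred arrays stood at 8.45 and 8.95. The part of other cells' RNA in the mitotic signal after transfer was not tested.

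The promoters of these genes are shown because genes of late cell cycle share a short element. The cell-cycle genes homology region, TTTGAA on either strand, is bound by the complex that silences mitotic genes in resting cells. In the 250 bases before to 50 bases after the start of transcription (RefSeq, GRCm38.p6) it was found in 28 of 36 promoters of the mitosis list (77.8%), which belong to 34 of its 42 measured members. It was found in 17.9% of 32851 promoters of all genes and in 5 of 39 promoters of the replication list (12.8%). CCAAT, either strand, was found in 72.2% of the mitosis promoters, 56.4% of the replication promoters and 37.4% of all promoters. The 250 bases before the start are given here for 2 of the genes described above that hold it, Kif2c and Ncapg, with the element in capitals (TTCAAA where it lies on the other strand).
Kif2c, chr4:117178773-117179022, minus strand: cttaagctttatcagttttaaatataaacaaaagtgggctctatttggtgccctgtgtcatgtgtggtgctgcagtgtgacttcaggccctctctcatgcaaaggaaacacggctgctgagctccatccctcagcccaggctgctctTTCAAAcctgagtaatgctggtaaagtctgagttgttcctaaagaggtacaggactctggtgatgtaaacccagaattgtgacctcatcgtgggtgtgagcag
Ncapg, chr5:45669675-45669924, plus strand: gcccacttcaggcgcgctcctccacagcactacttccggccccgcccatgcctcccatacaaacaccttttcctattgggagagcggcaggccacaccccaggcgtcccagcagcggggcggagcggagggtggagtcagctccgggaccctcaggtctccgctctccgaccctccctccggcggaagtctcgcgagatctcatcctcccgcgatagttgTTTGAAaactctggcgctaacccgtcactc

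Entry into the cycle changed less uniformly. Of 12 measured G1 cyclins and their kinases, 7 fell and 1 rose. Ccne1 (cyclin E1) fell by 1.73 ± 0.12, from 11.26, 11.03, 11.10 and 11.29 to 9.27 and 9.60. Ccnd1 (cyclin D1) rose by 1.87 ± 0.19, from 8.17, 8.17, 8.12 and 8.25 to 9.93 and 10.17, above its naive range of 8.29 to 9.27. Of 11 CDK inhibitors and pocket proteins 5 fell and 0 rose; Cdkn2c, which inhibits CDK4 and CDK6, fell by 1.22 ± 0.21 and Rbl1 (p107) by 0.95 ± 0.14. The largest fall of any gene was that of Cables1, a cyclin-dependent kinase adaptor, from 11.79, 10.62, 10.57 and 11.68 to 6.99 and 6.98 (−4.18 ± 0.28, adjusted p = 6.82e-08). Counted from background its change was −3.84, and its naive arrays were as low (6.66 to 7.09). Arrays 1 and 4 lay about 1 unit above arrays 2 and 3, and both pairs lay far above the transferred cells.

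Chromatin maintenance fell with replication. Of 12 genes in the list of maintenance methylation and Polycomb silencing, which also holds Tet1 and Tet3, 9 fell and 1 rose, with a median of −0.77. Dnmt1, which copies DNA methylation to the new strand, went from 12.03, 11.85, 11.79 and 12.004 to 10.47 and 10.47 (−1.45 ± 0.11). Its partner Uhrf1 fell by 2.35 ± 0.22, the Polycomb methyltransferase Ezh2 fell by 2.11 ± 0.17 and the helicase gene Hells fell by 2.66 ± 0.21. Tet1, which oxidises methylcytosine, fell by 1.67 ± 0.27, from 9.47, 10.39, 10.07 and 9.45 to 8.40 and 7.95, and so came to lie below all naive arrays (9.84 to 10.85). Tet3 rose by 0.31 ± 0.10 (adjusted p = 0.0188), a call lost without day 120 (0.25, adjusted p = 0.186). With the median of each array set equal, no member of the list was called higher.

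Lists of biosynthesis and energy metabolism held many falls and few rises. Of 16 genes of glycolysis and lactate export 14 fell and 0 rose, with a median of −1.32. Pgk1, phosphoglycerate kinase, went from 13.54, 13.65, 13.665 and 13.58 to 11.28 and 11.11 (−2.42 ± 0.13, adjusted p = 1.25e-08). Tpi1 fell by 2.20 ± 0.21 and Pgam1 by 1.77 ± 0.21. Slc16a3, the lactate exporter MCT4, went from 11.65, 11.50, 11.66 and 11.71 to 10.54 and 9.28 (−1.71 ± 0.34), and its day 120 array lay more than 1 unit under its day 18 array. Aldoc and Egln3, both induced by low oxygen, were among the 10 largest falls of all genes. Aldoc went from 11.09, 12.99, 12.996 and 11.14 to 8.08 and 8.33 (−3.85 ± 0.44) and Egln3 from 10.89, 12.17, 12.17 and 10.91 to 7.97 and 7.40 (−3.85 ± 0.34). Unlike Cables1, both were higher in arrays 2 and 3 than in arrays 1 and 4, by more than 1 unit.

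Mitochondrial genes fell as well, by less. All 30 oxidative phosphorylation subunits fell (median −0.69), as did 12 of 14 genes of the tricarboxylic acid cycle (median −0.69) and 14 of 18 genes of mitochondrial fatty acid oxidation (median −0.59), with 0 rises in the 3 lists. The largest fall among the subunits was that of Ndufb6 of complex I, from 12.05, 11.93, 11.65 and 12.16 to 10.62 and 10.71 (−1.28 ± 0.18). The mean of the 30 subunits after transfer lay within its naive range, as the plot of list levels shows. No list of energy metabolism rose in the transferred cells.

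Nucleotide and amino acid supply showed the same direction. Of 15 genes of serine, one-carbon and purine synthesis 14 fell and 0 rose (median −0.95), and 12 of the 15 lay below the whole naive range after transfer. Psat1, of serine synthesis, went from 11.52, 11.53, 11.39 and 11.56 to 9.19 and 9.30 (−2.25 ± 0.09, adjusted p = 1.48e-09), with naive arrays at 9.51 to 9.64. Phgdh, the first enzyme of that path, fell by 1.53 ± 0.13 and the mitochondrial folate enzyme Mthfd2 by 1.35 ± 0.14. Of 18 aminoacyl-tRNA synthetases 15 fell and 0 rose (median −0.65), Kars by 1.33 ± 0.12 and Gars by 0.84 ± 0.08. Of 17 translation initiation factors 9 fell, while Eif5 rose by 0.997 ± 0.16. Of 29 constitutive proteasome subunits 26 fell (median −0.59), Psmb4 by 0.98 ± 0.12, and of 16 chaperones 7 fell and 1 rose. Of 3 polyamine genes 1 rose, against 2 without day 18 and 0 without day 120.

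Ribosome biogenesis stood apart from these lists. Of 30 measured factors 9 fell, 6 rose and 15 were not called, and the median was −0.064, near that of all genes (0.07 after quantile normalization). Wdr12 fell by 0.95 ± 0.20 and Polr1c, a subunit of RNA polymerases I and III, by 0.67 ± 0.10. Polr1b, the second-largest subunit of RNA polymerase I, rose by 0.48 ± 0.13, a call lost without day 18 or day 120 (adjusted p = 0.0532 and 0.0716). Without day 18, 4 factors were lower and 1 higher, without day 120, 5 and 0, and with the macrophage marker level as a covariate, 1 and 3. Myc, which drives this programme in growing cells, was at 11.74, 12.13, 12.33 and 11.67 in effector cells and at 11.93 and 11.86 after transfer. Its groups overlapped, its change was −0.08 ± 0.16 (adjusted p = 0.77), and its naive arrays were at 11.67 to 12.01. Amino acid transporters were mixed, with 3 of 12 lower and 2 higher. Slc38a1 fell by 0.71 ± 0.10, and Slc16a10, which carries aromatic amino acids, went from 7.93, 8.48, 8.64 and 8.10 to 10.75 and 11.43 (2.80 ± 0.36).

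Sterol genes moved in opposite directions by role. Of 23 genes of sterol and fatty acid synthesis 22 fell and 0 rose, with a median of −1.50. Sqle, squalene epoxidase, went from 10.32, 11.07, 10.74 and 10.46 to 8.19 and 8.11 (−2.50 ± 0.17). Cyp51 fell by 2.23 ± 0.17, Idi1 by 2.17 ± 0.16, and the desaturase genes Scd2 by 2.47 ± 0.20 and Scd1 by 2.36 ± 0.45. Arrays 2 and 3 were higher than arrays 1 and 4 for this list at 72 h, and both pairs lay above the transferred arrays. Hmgcs1, the synthase for HMG-CoA, chosen after its values were seen because its promoter held the element below, went from 10.78, 11.77, 11.64 and 10.96 to 9.22 and 9.07 (−2.14 ± 0.21). Synthesis genes are switched on by SREBP factors through sterol regulatory elements, here searched as TCACNCCAC on both strands. It was found in 1 of 20 promoters of the list (5%, those of 17 of its 23 members) and in 1.24% of all promoters. CCAAT, bound by a partner of SREBP, was in 75% of the list's promoters. The 250 bases before the start of Hmgcs1 hold the element in capitals.
Hmgcs1, chr13:119690101-119690350, plus strand: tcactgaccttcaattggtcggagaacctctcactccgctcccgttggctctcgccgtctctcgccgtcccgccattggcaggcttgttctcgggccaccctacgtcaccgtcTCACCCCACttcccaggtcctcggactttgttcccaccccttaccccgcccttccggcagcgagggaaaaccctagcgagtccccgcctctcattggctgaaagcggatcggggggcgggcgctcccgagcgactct

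All 5 sterol export genes rose (13.1% of all genes rose), with a median of 2.86. The transporter gene Abcg1 went from 10.07, 9.97, 9.82 and 10.15 to 12.08 and 12.05 (2.06 ± 0.11, adjusted p = 1.25e-08) and Abca1 from 8.91, 7.49, 7.63 and 8.77 to 11.05 and 11.07 (2.86 ± 0.32). Mylip, a ligase that removes the LDL receptor, rose by 1.72 ± 0.13. Apoe rose by 4.43 ± 0.54 and Nr1h3, the liver X receptor α, by 3.50 ± 0.47, and macrophages express both. With the macrophage marker level as a covariate all 5 were called, Abcg1 at 1.90 and Mylip at 1.75 while Apoe was at 1.83 and Nr1h3 at 1.28. Of the naive arrays, 34 and 36 were the high ones for Apoe (12.54 and 12.65, against 10.15 and 10.53), whereas all 4 were high for Abcg1 (11.70 to 12.02).

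**Figure D2:**
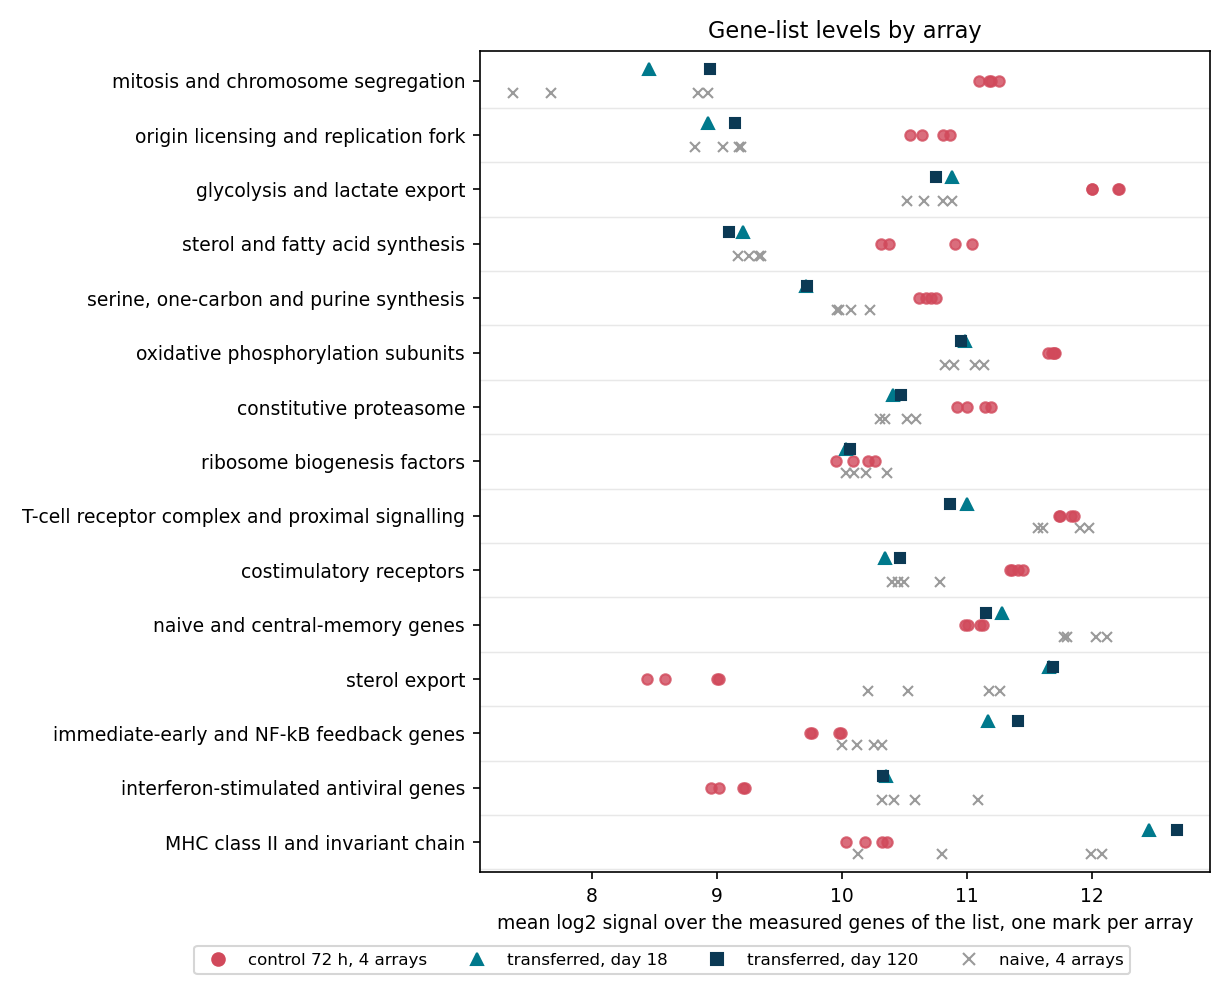
Each mark is 1 array, showing the mean log2 signal over the measured genes of a list: circles for the 4 control 72 h arrays, a triangle for day 18, a square for day 120 and crosses for the 4 naive arrays. For mitosis the transferred arrays (8.45 and 8.95) lie far under the 72 h arrays and near the naive ones, for the T-cell receptor list they lie under both, and for the immediate-early list (11.17 and 11.41) above both.

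Genes of the T-cell state changed in both directions, and some of those named below, such as Ifng and Trat1, lay outside both the 72 h and the naive range. Tbx21, encoding T-bet, the factor of type 1 effector cells, was at 11.04, 11.19, 11.19 and 10.999 in effector cells and at 11.24 and 11.01 after transfer. The groups overlapped, the change was 0.02 ± 0.15 (adjusted p = 0.943), and the naive arrays were far lower (8.10 to 8.81). Its sign turned in several alternative fits, and the 95% interval of the change ran from −0.30 to 0.35. Eomes, the related factor of memory cells, was at 11.41, 9.77, 9.57 and 11.46 at 72 h, where the array pairs differed by more than 1.5 units, and at 10.47 and 9.65 after transfer (−0.49 ± 0.44, adjusted p = 0.446).

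Of 21 effector and memory transcription factors 8 fell, 3 rose and 10 were not called. Ikzf2 (Helios) went from 12.24, 10.99, 10.92 and 12.27 to 7.83 and 7.88 (−3.75 ± 0.34), Myb from 11.99, 11.39, 11.35 and 12.02 to 8.64 and 9.025 (−2.85 ± 0.18), and Irf4, induced by receptor signalling, fell by 2.05 ± 0.26. Maf rose by 3.63 ± 0.375, Zeb2 by 2.77 ± 0.60 and Id2 by 1.32 ± 0.28. Maf stayed called with the macrophage covariate, at 1.85, whereas Zeb2 (0.25, adjusted p = 0.774) and Id2 (0.26, adjusted p = 0.587) did not. The falls of Ikzf2 and Myb were −3.57 and −3.03 with it.

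Quiescence factors split. Of 17 measured, 7 rose and 3 fell. Klf2, which keeps T cells at rest and drives exit from lymph nodes, went from 9.45, 8.75, 8.58 and 9.44 to 11.63 and 11.89 (2.71 ± 0.22, adjusted p = 2.52e-07), beside naive arrays at 11.46 to 11.88. Klf4 rose by 1.73 ± 0.18 and Tsc22d3 by 1.23 ± 0.24. Ccng2, a cyclin of arrested cells, went the other way, from 10.81, 10.93, 10.79 and 10.93 to 9.04 and 8.91 (−1.89 ± 0.10). Without day 18, 1 of the 17 was called lower.

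Among 18 genes of naive and central-memory cells, 7 rose and 6 fell, and 14 lay below the whole naive range after transfer. Il7r, the receptor for interleukin-7, went from 11.62, 12.34, 12.31 and 11.68 to 13.16 and 13.06 (1.12 ± 0.20, adjusted p = 0.000384), above its naive arrays (12.40 to 12.57). Il6ra went from 8.11, 8.45, 8.37 and 8.09 to 11.55 and 11.01 (3.02 ± 0.18). S1pr1, a receptor for exit into lymph, rose by 1.25 ± 0.13. Ccr9, a gut-homing receptor, rose by 2.74 ± 0.40 from background to 9.32 and 10.04 (2.36 counted from background), still under its naive arrays (11.83 to 12.64). Id3 fell by 2.15 ± 0.17 and Sesn3 by 1.63 ± 0.16. Ccr7, the lymph-node homing receptor, was at 13.38, 13.45, 13.49 and 13.37 in effector cells and at 12.83 and 13.25 after transfer. Its change of −0.38 ± 0.16 was not called (adjusted p = 0.0709) except without day 120 (−0.60, adjusted p = 0.031). Tcf7 had no probe set with 1 gene and was not measured.

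Cytotoxic genes split by gene. Of 21 measured, 6 fell and 5 rose. Gzmb (granzyme B) went from 12.73, 13.40, 13.31 and 12.79 to 10.42 and 10.32 (−2.69 ± 0.35, adjusted p = 2.67e-05), still above every naive array (6.86 to 8.75). Gzmc went from 9.36, 9.22, 8.36 and 9.72 to 6.44 and 6.39, under background (−2.75 ± 0.33, or −1.84 counted from it), and Gzmk fell by 1.46 ± 0.32. Gzma (granzyme A) went from 10.13, 10.41, 10.28 and 10.33 to 9.04 and 8.37 (−1.58 ± 0.41), a call lost without day 120 (−1.25, adjusted p = 0.0981). Prf1, perforin, which opens the target membrane, went up from 8.40, 8.88, 8.93 and 8.57 to 10.31 and 9.86 (1.39 ± 0.16, adjusted p = 7.26e-06). Gzmm rose by 0.96 ± 0.15. Perforin and granzyme B RNA moved in opposite directions in the same arrays.

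Ifng and Ccl5 were the cytokine and chemokine genes with the largest rises. Ifng, encoding interferon-γ, went from 8.45, 8.72, 8.88 and 8.26 to 11.72 and 11.93 (3.25 ± 0.31, adjusted p = 1.26e-06), above both the 72 h and the naive arrays (7.92 to 8.57), and its change was 3.03 with the macrophage covariate. Ccl5, a chemokine stored by memory cells, went from 10.91, 10.67, 10.80 and 10.90 to 13.91 and 13.88 (3.07 ± 0.24), with naive arrays at 11.56 to 12.60. Xcl1 fell by 1.85 ± 0.44, a call lost without day 120 (−1.61, adjusted p = 0.0517). Of 18 cytokine genes 5 fell, 3 rose and 10 were not called, 8 of the 18 lying under background in both groups. Without day 18, and likewise without day 120, 2 cytokine genes were called lower. Of 6 T-cell chemokine genes 2 rose and 1 fell, with 1 rise without day 18 and 0 falls without day 120.

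Cytokine receptor genes changed in both directions, with 8 of 23 higher and 7 lower. Il2ra, the α chain of the interleukin-2 receptor, went from 12.25, 12.98, 12.93 and 12.23 to 9.05 and 9.48 (−3.33 ± 0.35, adjusted p = 3.44e-06). Il12rb2 went from 12.72, 12.81, 12.80 and 12.645 to 9.84 and 10.66 (−2.49 ± 0.26). Il2rb, the chain shared by the interleukin-2 and interleukin-15 receptors, was at 13.08, 12.97, 12.97 and 13.09 in effector cells and at 12.63 and 12.73 after transfer. It fell by 0.35 ± 0.09 (adjusted p = 0.00476), a call lost without day 18 (−0.30, adjusted p = 0.0687), and its naive arrays were at 11.05 to 11.33. Il18r1 went from 9.60, 9.76, 9.55 and 9.72 to 11.47 and 11.64 (1.90 ± 0.10).

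Of 19 genes of the JAK-STAT, SOCS and PIM group 6 fell and 2 rose. The 2 rises were Pim1, a survival kinase (1.51 ± 0.25), and Socs3, a feedback inhibitor (1.47 ± 0.34). Pim1 was not called with the macrophage covariate (0.77, adjusted p = 0.111). Socs1 fell by 1.01 ± 0.20 and Stat3 by 0.74 ± 0.11. Arrays 2 and 3 were higher than arrays 1 and 4 at 72 h for Socs3 (8.77, 9.84, 9.98 and 8.76), and both transferred arrays lay above all 4.

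Inhibitory receptors divided, with 6 of 11 lower and 5 higher, and none uncalled. Pdcd1, encoding PD-1, went from 12.08, 10.76, 10.53 and 12.09 to 7.42 and 7.47 (−3.92 ± 0.36, adjusted p = 8.69e-07), into its naive range (7.21 to 7.92). Ctla4 went from 12.64, 12.68, 12.57 and 12.68 to 9.26 and 10.52 (−2.75 ± 0.29) and Tigit from 11.55, 11.19, 11.03 and 11.46 to 8.04 and 9.58 (−2.50 ± 0.29), and for both the day 120 array was more than 1 unit above the day 18 array. Btla rose by 0.55 ± 0.11. Lair1 (3.23 ± 0.41) and Cd244a (3.34 ± 0.455, or 3.02 counted from background) rose more, and macrophages or NK cells express them: with the macrophage covariate they were at 1.34 and 1.35. With that covariate 3 genes of the list were called higher and 6 lower.

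Costimulatory receptors mostly fell, with 9 of 14 lower and 1 higher (median −0.94). Tnfrsf9 (4-1BB) had the smallest error among the largest falls, going from 12.56, 12.49, 12.48 and 12.605 to 8.72 and 8.77 (−3.79 ± 0.14, adjusted p = 4.15e-10), below its naive arrays (8.91 to 9.41). Tnfrsf4 (OX40) fell by 2.24 ± 0.15, Icos by 1.63 ± 0.20 and Slamf6 by 1.76 ± 0.26. Tnfrsf25 rose by 0.57 ± 0.13, a call lost without day 120 (0.45, adjusted p = 0.0674). Nrn1 and Rasgef1a, 2 of the 10 largest falls and in no list, fell by 3.88 ± 0.28 and 3.91 ± 0.30, to levels under background (−3.32 and −3.49 counted from it).

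The T-cell receptor apparatus fell below both other states. Of 20 genes of the receptor complex and its proximal signalling 17 fell and 1 rose (median −0.81), and 18 of the 20 lay below the whole naive range after transfer. Cd3d, a chain of the receptor complex, went from 11.74, 12.03, 12.08 and 11.70 to 10.40 and 10.22 (−1.58 ± 0.16), with naive arrays at 10.82 to 11.44. Cd5, which damps receptor signals, fell by 1.34 ± 0.11 to 10.46 and 10.33. Trat1 went from 8.92, 8.13, 7.59 and 8.925 to 5.33 and 5.52, under background (−2.97 ± 0.34, or −1.07 counted from it), while its naive arrays were at 8.42 to 9.41. Lcp2 (SLP-76), an adaptor that myeloid cells and platelets also use, rose by 0.45 ± 0.07. Cd8a, which defines the cell type, was at 12.96, 13.18, 13.19 and 12.997 in effector cells and at 12.68 and 12.46 after transfer (−0.51 ± 0.11, adjusted p = 0.00124). With the macrophage covariate 7 of the 20 genes were called lower in place of 17, and Cd8a was at −0.17 (adjusted p = 0.447). The mean of 9 CD8 T-cell markers was 12.44 to 12.76 at 72 h, 12.09 and 11.90 after transfer and 12.41 to 12.75 in naive cells. Whether these falls reflect less T-cell RNA in the transferred arrays was not tested.

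**Figure D3:**
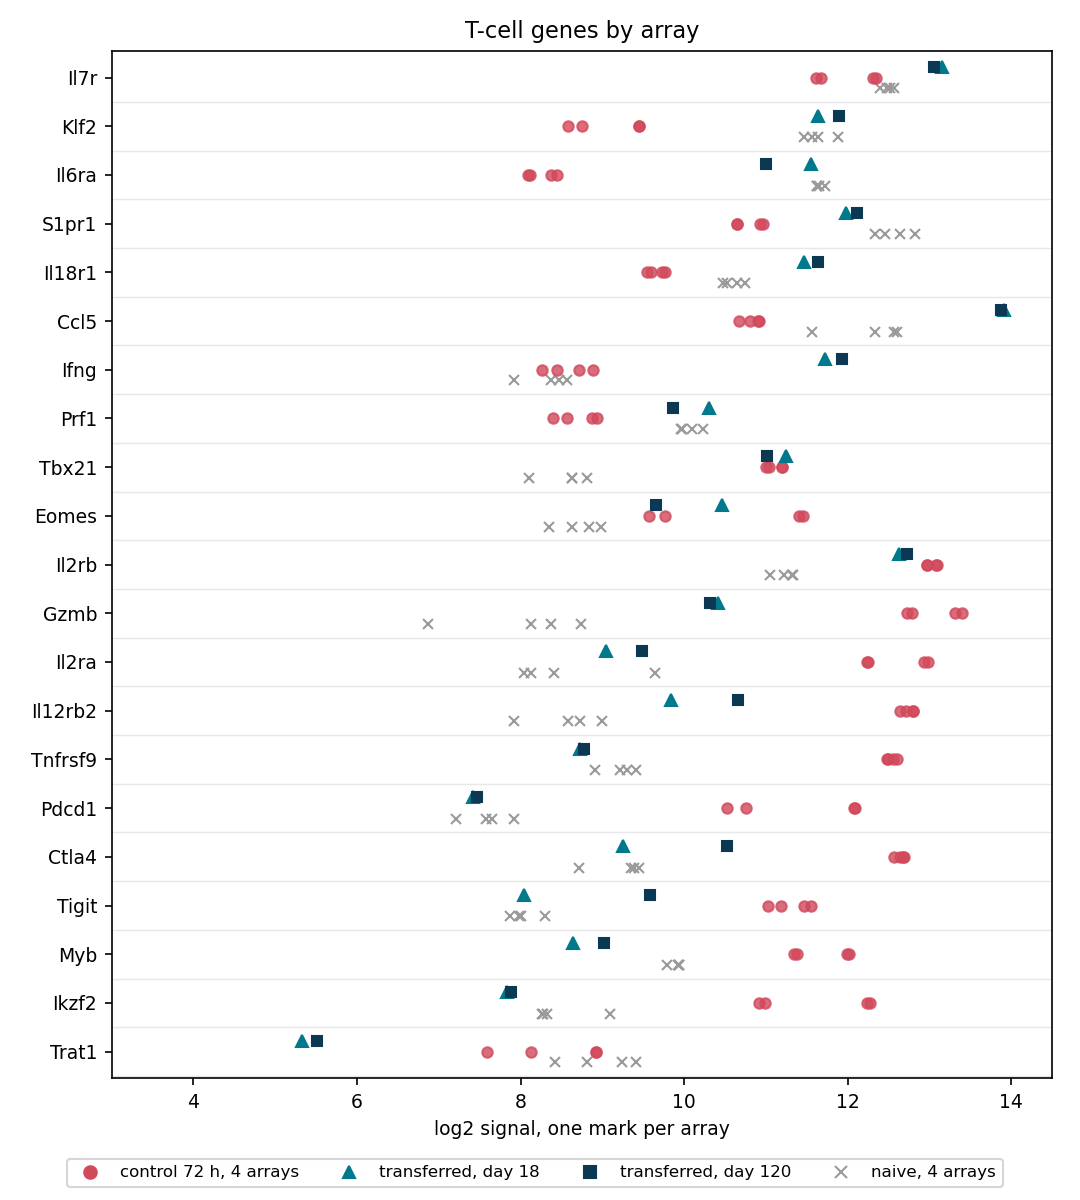
Each mark is the log2 signal of 1 gene on 1 array: circles for the 4 control 72 h arrays, a triangle for day 18, a square for day 120 and crosses for the 4 naive arrays. Ifng and Ccl5 lie above both the 72 h and the naive arrays after transfer, Tbx21 overlaps its 72 h arrays, Pdcd1 and Ikzf2 lie near or below the naive arrays, and Trat1 lies under both groups.

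Of 15 receptor genes shared with NK cells, 10 rose and 2 fell, although 5 lay under background in both groups, and the median was 1.19. Klrc1 (NKG2A) went from 8.48, 8.01, 7.67 and 8.57 to 10.40 and 10.24 (2.13 ± 0.37) and Klrc2 from 7.37, 7.28, 6.82 and 7.28 to 9.18 and 9.14 (1.97 ± 0.29, or 1.84 counted from background). Their partner chain Klrd1 (CD94) fell by 1.47 ± 0.17 and Cd160 by 1.71 ± 0.19. Klrg1, a marker of terminal effector cells, stayed under background in both groups (6.41, 6.58, 6.57 and 6.54, then 7.11 and 6.88). Beside these rises, 5 of 6 NK-cell markers rose, from means of 8.00 to 8.50 at 72 h to 10.37 and 9.93, and naive arrays 34 and 36 stood at 10.13 and 9.82. Of the 6, 3 lay under background at 72 h and 1 in both groups. Whether NK cells or other cells gave this RNA was not tested. With the macrophage covariate 4 NK receptors were called higher in place of 10, Klrc2 among them (1.28) and Klrc1 not (0.82, adjusted p = 0.18). Klrc1 and Klrc2 are similar copies read by separate probe sets. Whether each probe set also reads the other gene's RNA was not tested, so their changes are not taken as independent results.

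Adhesion and homing genes gave calls both ways. Of 19 integrins, CD44 and selectin-ligand genes 10 rose and 3 fell, 5 and 3 without day 18. Cd44, the marker of antigen experience, went from 10.34, 9.79, 9.81 and 10.31 to 11.48 and 11.34 (1.35 ± 0.45, adjusted p = 0.026). Its call was lost without array 2, array 3, day 18 or day 120 (adjusted p from 0.055 to 0.134), and with the macrophage covariate its sign turned (−0.59, adjusted p = 0.263). St3gal6, of selectin-ligand synthesis, rose by 1.37 ± 0.13 and by 1.67 with the covariate. Itgae, the αE chain of CD103, fell by 1.48 ± 0.33, a call lost without day 18 (−1.04, adjusted p = 0.0647). Of 17 chemokine and egress receptors 8 rose and 2 fell, and 5 rose and 2 fell with the macrophage covariate. Ccr3 had the largest rise of the list (5.63 ± 0.91, or 5.07 counted from background), and its change was 1.27 with the covariate. Naive arrays 34 and 36 were the high ones for it (11.49 and 10.88, against 7.05 and 7.92). The part of other cells' RNA in these rises was not tested.

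BCL2 family genes were called in both directions. Of 4 pro-survival BCL2 family genes 2 rose and 1 fell, but 1 rose and 0 fell without day 18 or without day 120, and 0 were called with the macrophage covariate or with the RNA integrity number as a covariate. Of 10 pro-death members 3 fell and 1 rose, and 1 fell without day 120 or with the macrophage covariate. Bak1 fell by 0.90 ± 0.13, and Pmaip1 (NOXA) rose by 0.98 ± 0.14. Of 8 GIMAP genes, lymphocyte GTPases linked to survival, 7 fell and 0 rose (median −0.67), Gimap1 from 10.58, 11.01, 10.86 and 10.66 to 9.32 and 8.98 (−1.62 ± 0.19), and 1 was called lower with the macrophage covariate. Slfn5, a Schlafen gene, went from 7.33, 7.46, 7.22 and 7.67 to 10.71 and 10.16 (3.01 ± 0.23), with naive arrays at 10.61 to 11.60. It was 1 of 3 rises among 7 Schlafen genes, 1 of which fell, whereas without day 18 the list had 1 rise and 2 falls. Among 13 S100 and annexin genes 2 rose and 2 fell. Without day 18 there were 0 rises and 2 falls, and with the macrophage covariate 0 rises and 4 falls. The largest rise of the list was that of Anxa1 (annexin A1), from 7.98, 7.51, 7.16 and 7.94 to 11.75 and 11.115 (3.79 ± 1.09, adjusted p = 0.0122), a call lost without day 18 (adjusted p = 0.0932). Naive arrays 34 and 36 were the high ones for it (12.02 and 11.49, against 6.70 and 7.33), and its sign turned with the macrophage covariate (−1.42, adjusted p = 0.0282).

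Immediate-early genes stood above both other states. These genes are transcribed within minutes of a stimulus without new protein. Of 28 immediate-early and NF-κB feedback genes 20 rose and 2 fell (median 1.48), and 25 of the 28 lay above the whole naive range after transfer. Dusp1, a phosphatase of MAP kinases, went from 9.90, 9.97, 10.04 and 9.92 to 13.90 and 13.98 (3.98 ± 0.29, adjusted p = 1.27e-07), with naive arrays at 12.08 to 12.91. Fosb went from 8.204, 8.13, 8.201 and 8.02 to 12.04 and 12.56 (4.16 ± 0.39) and Fos from 7.53, 8.09, 8.44 and 7.53 to 11.70 and 11.72 (3.81 ± 0.35). Rgs2 rose by 3.91 ± 0.35 and Atf3 by 2.84 ± 0.42. The 2 falls were the receptor-induced genes Egr2 (−0.67 ± 0.19) and Egr3 (−0.52 ± 0.13). Both calls were lost without day 18 (adjusted p = 0.0916 and 0.0543), that of Egr2 also without day 120 (adjusted p = 0.0545). Given the macrophage covariate, 15 of the 28 rose, Fos by 3.38, Fosb by 3.63 and Dusp1 by 3.20. The list mean was 11.17 and 11.41 after transfer and 10.12, 10.26, 10.00 and 10.32 in naive arrays 33 to 36. The part of other cells' RNA in this rise was not tested.

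Of 22 interferon-stimulated antiviral genes, 12 rose, 1 fell and 9 were not called (median 1.17), and 0 lay above the naive range. Ifit3, an antiviral protein gene of the Ifit family, went from 7.59, 7.24, 6.73 and 7.68 to 11.20 and 10.57 (3.57 ± 0.26, adjusted p = 1.14e-07), with naive arrays at 11.41 to 12.06. Oasl2 went from 8.81, 8.29, 8.06 and 8.74 to 11.72 and 11.62 (3.20 ± 0.29) and Oas2 rose by 2.72 ± 0.25. Rsad2 (viperin) rose from 8.08, 8.41, 8.45 and 8.09 to 10.19 and 13.06, with day 120 nearly 3 units above day 18 (3.37 ± 0.65). Zbp1, a sensor of nucleic acids, fell by 0.62 ± 0.17, a call lost without day 120 (−0.55, adjusted p = 0.0966). With the macrophage covariate 14 of the 22 were called higher and 0 lower.

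Interferon-stimulated genes share a response element in their promoters, searched here as GAAA, any 2 bases and GAAA again, on both strands. It was found in 9 of 21 promoters of the list (42.9%, those of 17 of its 22 members) and in 3.44% of all promoters. The 250 bases before the start are shown for the 2 members with the largest changes that hold it, with the element in capitals (read on the other strand in each case).
Ifit3, chr19:34583279-34583528, plus strand: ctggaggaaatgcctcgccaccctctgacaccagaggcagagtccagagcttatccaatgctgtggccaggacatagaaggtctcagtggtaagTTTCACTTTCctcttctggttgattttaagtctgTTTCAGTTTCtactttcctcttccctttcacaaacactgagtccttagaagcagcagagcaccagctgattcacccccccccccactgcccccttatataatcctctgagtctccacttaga
Rsad2, chr12:26456453-26456702, minus strand: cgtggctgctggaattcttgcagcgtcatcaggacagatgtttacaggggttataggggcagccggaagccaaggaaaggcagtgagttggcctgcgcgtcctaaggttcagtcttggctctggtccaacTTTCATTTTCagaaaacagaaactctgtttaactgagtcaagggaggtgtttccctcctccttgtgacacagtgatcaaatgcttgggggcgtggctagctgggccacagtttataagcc

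Antigen presentation split by class. Of 12 genes of MHC class I presentation 5 fell and 0 rose, Psmb9 of the immunoproteasome from 12.05, 12.29, 12.10 and 12.04 to 11.16 and 11.16 (−0.96 ± 0.10) while the peptide transporter gene Tap1 fell by 0.63 ± 0.11. Among 8 interferon-inducible GTPases 2 fell and 1 rose, with 1 fall without day 18 and 0 rises without day 120. All 7 class II genes rose (median 2.47), H2-Aa from 10.65, 10.12, 10.19 and 10.45 to 12.88 and 13.20 (2.69 ± 0.45) and the invariant chain Cd74 from 11.45, 10.63, 10.997 and 11.41 to 13.63 and 13.79 (2.59 ± 0.47). Mouse T cells make little class II, and naive arrays 34 and 36 were also the high ones for H2-Aa (12.53 and 12.45, against 10.39 and 11.02). Only 2 of the 7 were called with the macrophage covariate, and H2-Aa was not (0.63, adjusted p = 0.142). The compared groups do not overlap in that covariate, and the source of the class II RNA was not tested.

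The largest rises were in genes known from macrophages, granulocytes and other non-T cells. The 10 largest among called genes without overlap were Adgre4, Slc40a1, Mrc1, Treml4, Spic, Cd5l, Vcam1, C1qc, Ltf and Ccr3. Spic, the factor that makes red-pulp macrophages, went from 6.63, 5.997, 5.995 and 6.44 to 12.13 and 12.19 (5.89 ± 1.18, or 4.84 counted from background). Slc40a1, ferroportin, with which these macrophages export iron from old red cells, went from 6.97, 6.35, 6.38 and 6.98 to 13.07 and 13.02 (6.38 ± 1.36, or 5.73 from background). Ltf, a neutrophil granule protein, went from 7.75, 6.90, 6.78 and 7.61 to 13.13 and 12.75 (5.68 ± 1.43, or 5.62 from background).

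Of 13 red-pulp macrophage markers 12 rose and 1 was not called, of 10 monocyte markers 9, of 10 neutrophil markers 8 and of 11 dendritic-cell markers 9, with 0 falls. Neutrophil means went from 7.35 to 8.06 over the 72 h arrays to 12.23 and 11.70, and naive arrays 34 and 36 stood at 12.35 and 12.22. Of 11 B-cell markers 3 rose and 7 lay under background in both groups, of 5 plasma-cell markers 0 rose and 3 fell, and of 3 γδ T-cell markers 0 were called. In the 10 stromal markers there were 2 rises and 1 fall, in the 6 platelet markers 3 rises, and in the 4 markers of CD4 and regulatory T cells 1 rise and 1 fall. Of 7 endothelial markers 6 rose, with means from 7.21 to 7.34 at 72 h and 8.08 and 8.13 after transfer. By the labels these were purified CD8 T lymphocytes.

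**Figure D4:**
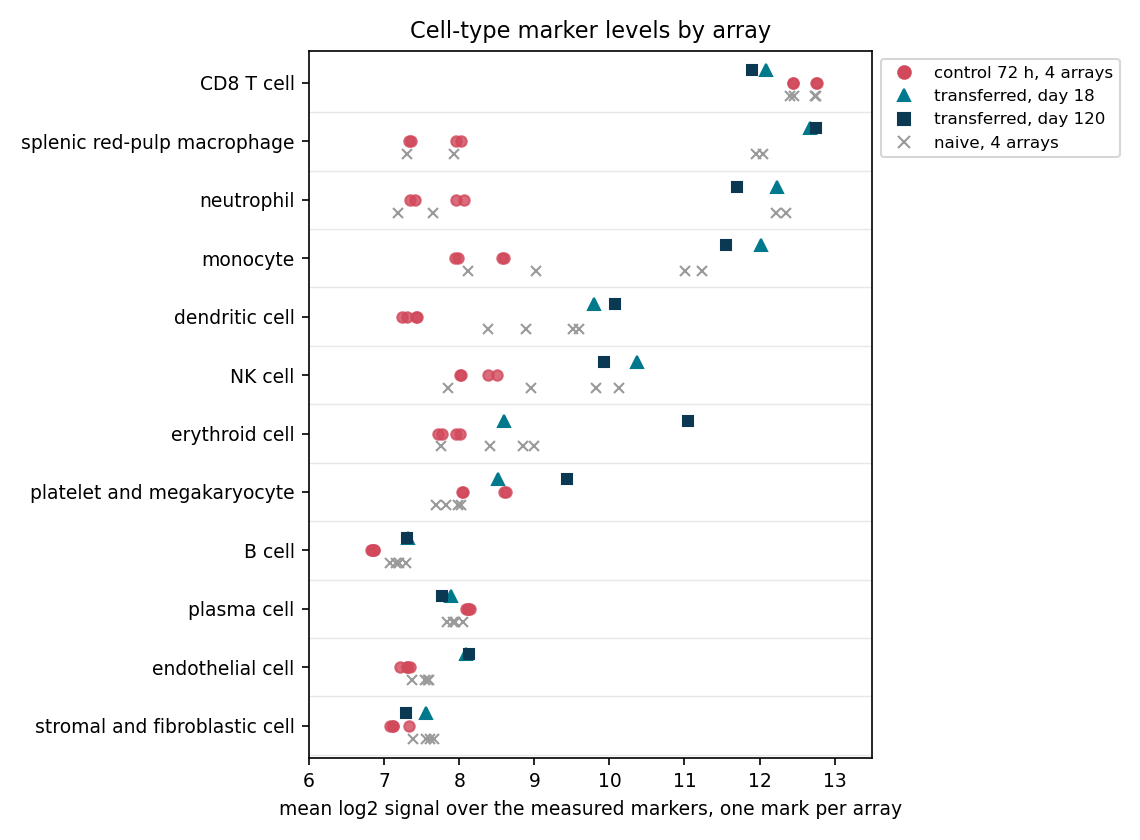
Each mark is 1 array, showing the mean log2 signal over the measured markers of a cell type: circles for the 4 control 72 h arrays, a triangle for day 18, a square for day 120 and crosses for the 4 naive arrays. The transferred arrays (12.67 and 12.75) and naive arrays 34 and 36 lie at the right for red-pulp macrophages, while CD8 T-cell markers after transfer (12.09 and 11.90) lie a little below all other arrays.

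The macrophage marker level, the mean of the 13 red-pulp markers, was then used as a covariate. The groups compared do not overlap in it, and the adjusted changes are extrapolated from the other groups. The 13 markers stayed among the genes tested, although a mean that holds a gene takes up part of its change by construction. Of the 1082 rises of at least 2-fold 533 (49.3%) were no longer called, and of the 1102 falls 113 (10.3%). Called in the same direction were 529 of the rises and 989 of the falls. The remaining rises were called lower with the covariate, Ltf and Anxa1 among them. Of the genes above whose change is printed, Ltf (−1.25), Anxa1 (−1.42) and Cd44 (−0.59) turned sign, as did Tbx21 (−0.32) and Myc (0.15), which were not called in the first place. Slc40a1 (−0.27) turned sign too, but its adjusted change is no separate result, as it is 1 of the 13 markers averaged into the covariate. The falls of Bub1 (−6.10), Pgk1 (−2.81), Sqle (−2.66), Pdcd1 (−3.80) and Gzmb (−3.79) were called with it, as were the rises of Ifng (3.03), Ccl5 (2.58), Il7r (1.22), Klf2 (2.73), Prf1 (1.68) and Il18r1 (1.95). In lists of growth, calls lower after transfer numbered 7 of the 18 synthetases, 5 of the 17 initiation factors, 17 of the 29 proteasome subunits, 9 of the 18 fatty acid oxidation genes, 5 of the 12 methylation and Polycomb genes and 4 of the 16 chaperones with the covariate. Among T-cell lists, 1 gene of the JAK-STAT group, 3 naive and central-memory genes, 3 cytotoxic genes, 0 cytokine genes and 1 class I gene were called lower, while 3 integrin and selectin-ligand genes, 5 chemokine receptor genes, 5 cytokine receptor genes, 4 quiescence genes and 1 transcription factor were called higher.

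The 2 transferred arrays, of day 18 and day 120, differed little for most genes. The median absolute difference between them was 0.108 and the 95th percentile 0.472. At least 2-fold differences numbered 233 genes, 141 higher on day 120 and 92 higher on day 18. With 1 array at each time there is no test of the day. For 166 called genes, 50 of them changed at least 2-fold, the difference between the days was larger than the change from 72 h.

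Red-cell genes led the differences toward day 120. Alas2, the first enzyme of haem synthesis in red cells, was at 8.93 and 13.62 on the 2 arrays, against 8.60, 9.12, 8.94 and 8.44 at 72 h. Bpgm, of red-cell glycolysis, was at 7.87 and 12.59, and Slc4a1, the anion exchanger band 3, at 9.67 and 13.33. Trim10 (7.31 and 10.99), Ube2o (9.05 and 12.89), which clears proteins from maturing red cells, and Cdr2 (8.87 and 12.49) showed the same step. Apol10a (6.22 and 10.38) and Aldh1a1 (7.63 and 11.12), which makes retinoic acid, completed the 8 largest. The mean of 4 erythroid markers was 7.72 to 8.02 at 72 h, 8.60 on day 18 and 11.05 on day 120. Without day 120 the calls of Slc4a1, Trim10, Ube2o, Cdr2, Apol10a and Aldh1a1 were lost, and without day 18 Alas2 and Bpgm gained one (4.85 and 4.43). Ube2o and Cdr2 were also not called without any 1 of the 72 h arrays (adjusted p from 0.0557 to 0.0726). For Bpgm, Cdr2 and Ube2o the day 18 array lay under the 72 h mean (changes of −0.28, −0.07 and −0.13 without day 120).

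Toward day 18 the leading genes were of several kinds. Bpifa2, a salivary protein, was at 12.59 and 6.68 on the 2 arrays, against 6.33, 6.52, 6.02 and 6.65 at 72 h and 11.57 to 13.60 in naive cells. Cd209b and Cxcl13, genes of marginal-zone macrophages and follicular stroma, were at 9.97 and 6.88 and at 10.12 and 7.63. Retnla (9.65 and 6.63), Prg4 (10.38 and 7.61) and the chemokine gene Ccl8 (8.77 and 6.04) followed. Cpa3, a mast-cell protease, was at 9.82 and 7.25, but its 72 h arrays already ranged over 10.68, 9.21, 9.21 and 10.86. The calls of Bpifa2, Ccl8, Cd209b, Cxcl13 and Retnla were lost without day 18, that of Prg4 was kept (adjusted p = 0.0196), and Cpa3 was called lower without day 18 (−2.74, adjusted p = 0.0233). Xist was the other member of the 8, as given above.

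**Figure D5:**
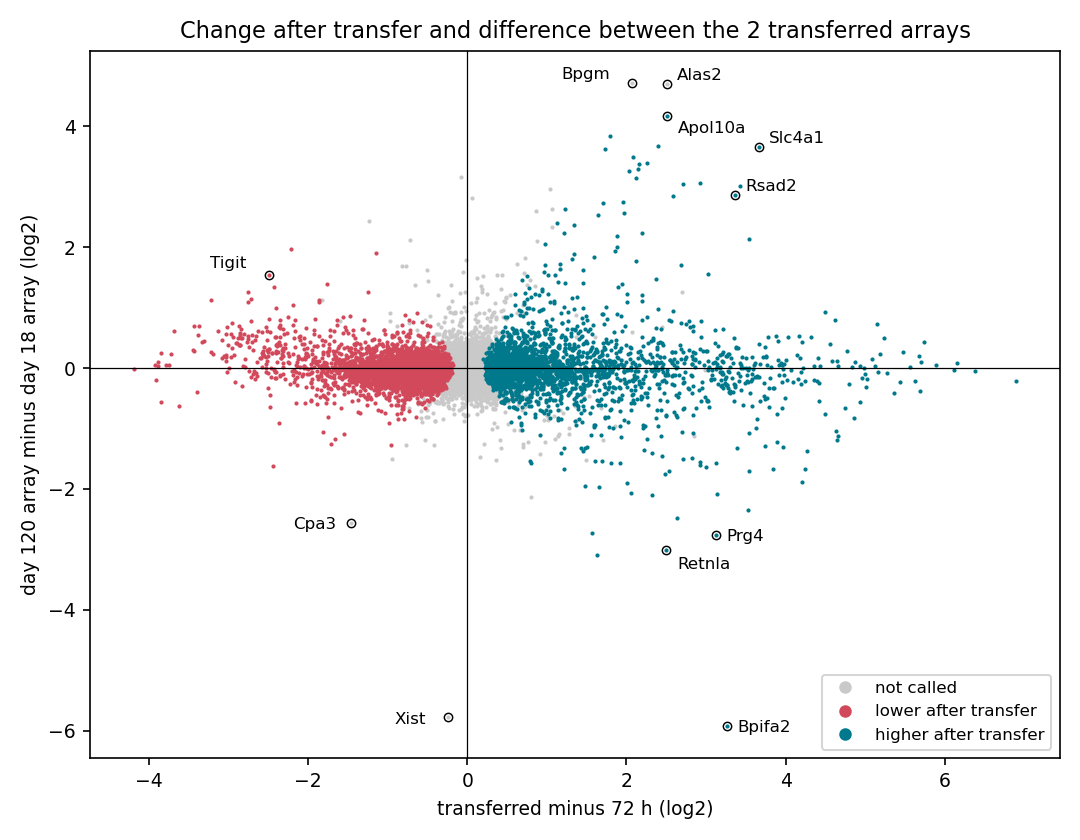
Each point is 1 of 19938 genes, with the transferred minus 72 h difference (log2) across and the day 120 minus day 18 difference (log2) up; colours give the calls and circles mark genes named in the text. Most genes lie near 0 on the upright axis, while Alas2, Bpgm and Slc4a1 lie high and Bpifa2 and Xist low.

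The change of control cells was finally set against that of Stat5ca cells, whose transferred arrays are from day 20. In a test of the difference between the 2 changes 3549 genes were called (17.8%), 1093 with the more positive change in control cells (5.48%) and 2456 with the more negative (12.3%). The labels name transduction for Stat5ca cells alone and GFP-positive cells for their 72 h arrays, so active Stat5 cannot be told apart from transduction or sorting. The mean of the red-pulp macrophage markers was 6.87 to 6.90 over the Stat5ca 72 h arrays and 9.60 to 10.81 over the transferred Stat5ca arrays, so this RNA also differed between the 2 changes, and its part in them was not tested.

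Gzma fell in control cells, as above, while Stat5ca cells went from 8.42 ± 0.43 (SD, n = 2) to 12.86 ± 0.30 (SD, n = 4), a difference between the changes of −6.02 ± 0.58 (adjusted p = 2.6e-05). For Gzmk Stat5ca cells went from 8.71 ± 0.50 to 11.52 ± 0.48 (difference −4.28 ± 0.45). For Klrc1 they went from 5.93 ± 0.30, under background, to 12.34 ± 0.30 (difference −4.28 ± 0.52, or −2.88 counted from background). Klra5, an inhibitory NK receptor gene, lay under background in all control arrays (4.51, 4.68, 5.19 and 4.76, then 5.54 and 5.54) and in Stat5ca cells at 72 h (4.41 ± 0.14), and reached 11.19 ± 0.41 in transferred Stat5ca cells. The difference was −6.03 ± 0.30 in the fit and −3.87 counted from background. Its change in control cells (0.75 ± 0.21) was 0 counted from background and was not called without day 18 or day 120. Ccr9 rose in control cells and went from 8.96 ± 0.15 to 8.08 ± 0.39 in Stat5ca cells (difference 3.62 ± 0.56, adjusted p = 0.000669, or 3.23 counted from background). Serpinb1a, an inhibitor of neutrophil proteases, had a difference of 3.99 ± 0.78; its rise in control cells (2.19 ± 0.55) was not called without day 18. Vsig4, a macrophage receptor gene, rose in control cells by 3.68 ± 0.40 (1.61 counted from background), with a difference of 3.41 ± 0.57 (1.61 from background), and both Stat5ca groups lay under background. Hpgds, a prostaglandin synthase gene, rose by 4.005 ± 0.61 (3.57 from background), with a difference of 3.31 ± 0.86 (2.87 from background).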

How the data were processed

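Affymetrix mouse gene arrays measured RNA of 19 samples, of which 6 are compared here and 10 others share the fit. The authors deposited log2 values per probe set, made with Affymetrix Expression Console per the submitters' processing notes; its version and settings are not given in the sources used, and the arrays' number limits the precision. The labels' protocols name the AMBION WT Expression kit with 0.125 µg of RNA. From the 35557 probe sets, 21789 with 1 gene symbol were kept (1621 had several genes and 12147 none), and each of 19938 genes was given its brightest probe set over the 19 arrays (999 genes had more than 1). A probe set reads a gene as a whole, so splice forms were not separated. Whether probe sets of similar copies, such as Klrc1, Klrc2 and Klrc3, read each other's RNA was not tested.

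Changes were tested with limma 3.58.1 (lmFit and eBayes, R 4.3.3) on the 16 TCRP1A arrays with 1 mean per group, 11 residual degrees of freedom and Benjamini-Hochberg adjustment over all genes; the contrast was transferred control minus control 72 h, and an interaction contrast set it against Stat5ca cells. On simulated data of 19938 genes for this contrast, 50 genes were changed by each size. Recovered were 86% of those raised by 1 log2 unit, 98% lowered by 1, 60% raised by 0.5 and 100% raised by 2. Of 19738 unchanged genes 8 were called. Noise was drawn independently for each array and few genes were changed. The simulation thus held neither the array pairs, the shared shifts of markers of other cells nor the large share of changed genes seen here. The 43 gene lists (758 members, 711 measured), the 14 marker lists (121 markers, 109 measured) and the comparison itself were chosen with earlier results of these data known. Genes were named by rule: the 10 largest rises and falls without overlap, up to 5 members of each list with the largest changes and called members against its direction, 11 fixed T-cell genes, the markers, the 8 largest differences between days each way and 4 interaction genes each way. Promoter sequences are from RefSeq (GRCm38.p6). Alternatives covered scaling, filters, covariates, array weights, other sets of arrays and leaving out each array.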

Additional observations from a re-analysis of the deposited data

Results flagged for a closer look

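In 4 of the 166 genes examined 1 of the 4 control 72 h arrays stood apart from the others. Its gap to the nearest array divided by the range was above Dixon's 95% critical value. For independent arrays chance gives this in about 1 of 20 groups. The 72 h arrays fell into pairs, so that rate is no guide here. Adgre4 was at 5.33 in array 2 against 5.82 to 5.86 (ratio 0.918) and Nr1h3 at 7.33 in the same array against 7.74 to 7.77 (0.917). Apol10a was at 5.96 in array 3 against 5.72 to 5.75 (0.878) and Polr1c at 10.85 in array 3 against 11.06 to 11.09 (0.871). Adgre4 and Apol10a lay under background (7.32) at 72 h. Each gap is small beside the gene's change after transfer, except for Polr1c (−0.67).

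The change after transfer differed between control and Stat5ca cells in 3549 genes by limma's interaction test. Given here are 8 of them, the 4 with the largest differences each way among genes whose control arrays did not overlap. The difference, control minus Stat5ca, was 3.99 ± 0.78 for Serpinb1a (adjusted p = 0.00294), 3.62 ± 0.56 for Ccr9 (0.000669), 3.41 ± 0.57 for Vsig4 (0.00102) and 3.31 ± 0.86 for Hpgds (0.015). It was −6.03 ± 0.30 for Klra5 (8.94e-08), −6.02 ± 0.58 for Gzma (2.6e-05), −4.28 ± 0.45 for Gzmk (4.99e-05) and −4.28 ± 0.52 for Klrc1 (0.000137). Counted from background the differences were 3.23 for Ccr9, 1.61 for Vsig4, 2.87 for Hpgds, −3.87 for Klra5 and −2.88 for Klrc1.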

How the results depend on the processing

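No paired analysis was possible because the control 72 h arrays (1 to 4) and the transferred control arrays (30 and 32) share no replicate number. Without 1 array at a time, called genes numbered 5473 to 7396 (5473 without day 120, 5855 without day 18), rises 1950 to 2591, falls 3523 to 4805, and calls of at least 2-fold 2047 to 2229 (993 to 1070 rises, 1050 to 1185 falls). Calls of the interaction numbered 2225 to 3806 (2225 without day 120, 2570 without day 18). A lone transferred array is assumed to vary like the other groups. With the macrophage covariate 3567 genes were called, 1208 higher and 2359 lower, and 1422 at 2-fold or more, 407 of them higher. The interaction gave 6096 calls with array weights and no value in the fit on the 6 arrays. Sign turned with the macrophage covariate for Anxa1 (−1.42), Cd44 (−0.59), Ltf (−1.25), Serpinb1a (−0.25), Slc40a1 (−0.27), Tbx21 (−0.32) and Myc (0.15). Slc40a1 is itself 1 of the markers averaged into that covariate. Myc was also positive with the Y-linked level as covariate (0.053), array weights (0.081) and without arrays 2 and 3 (0.19), and ran from −0.17 to 0.045 when 1 array was left out. Tbx21 was negative with centred arrays (−0.0086), and without arrays 1 and 4 (−0.066), and ran from −0.096 to 0.14 when 1 array was left out. Eomes was positive without arrays 1 and 4 (0.39). Over single arrays left out, Bpgm ran from −0.28 to 4.43, Cdr2 from −0.073 to 3.54 and Ube2o from −0.13 to 3.70, each lowest without day 120. The cause was not tested. Settings by array pair and the Y-linked covariate were chosen after seeing the data. Probe sets averaged per gene, trend and robust priors, all 19 arrays, quantile scaling, centring, the dim-gene filter and other sets of arrays kept each count within 1.5 times, the interaction apart where named.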
